A study of Mus musculus with 6 samples.

Results

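The genes described here encode 7 E2F transcription factors (*E2f1*, *E2f2*, *E2f3*, *E2f4*, *E2f5*, *E2f7* and *E2f8*) and the 3 RB pocket proteins (*Rb1*, *Rbl1* and *Rbl2*). They were chosen by gene name, each name occurred in 1 row of the count table, and together they are 10 of its 43346 genes. All 10 passed the filter on low counts, which left 17589 genes for testing. RNA-seq measured polyadenylated RNA in primary mouse adult fibroblasts (MAFs). These had been isolated by enzymatic digestion from the ears of adult female C57BL/6J mice. Control MAFs (3 samples) were sham irradiated, and senescent MAFs (3 samples) had been given 20 Gy of X-rays and then cultured for 21 days. The time that control cells spent in culture after sham irradiation is not given, so effects of irradiation and of time in culture cannot be told apart. Both groups were wild type, were kept at 3% oxygen, were synchronized with 100 nM dexamethasone for 2 hours and were collected 12 hours later. Values therefore describe 1 time point after synchronization, and because nothing states that the replicates came from separate animals or cultures, p-values measure only the spread between these samples.

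E2F factors bind the promoters of genes needed for DNA replication and cell division. E2F1, E2F2 and E2F3 are known as activators. E2F4 and E2F5 mostly repress together with a pocket protein, and the atypical E2F7 and E2F8 repress without one and without a DP partner. The pocket proteins RB (from *Rb1*), p107 (from *Rbl1*) and p130 (from *Rbl2*) bind E2F and block it until cyclin-dependent kinases phosphorylate them. In arrested cells, p130 with E2F4 and the MuvB proteins forms the DREAM complex, a repressor of cell cycle genes.

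Total counts lay between 50288454 and 82229553 per library. Senescent replicate 3 stood apart from the other senescent libraries, with a median absolute difference of 0.229 and 0.24 in log2 CPM per gene (CPM, counts per 1000000 counts of the TMM-scaled library), against 0.0706 between senescent replicates 1 and 2 and between 0.0641 and 0.111 among control libraries. The fibroblast markers *Col1a1*, *Col1a2*, *Dcn*, *Pdgfra*, *Thy1*, *Fn1* and *Lum* were all tested. Together they held 54651 to 55379 CPM (here of the unscaled library total) in control and 45830 to 50696 in senescent libraries. *Dcn*, *Thy1* and *Lum* were higher and *Col1a1*, *Col1a2* and *Pdgfra* lower. Most of the sum was *Fn1*, which was not called, with TMM-scaled means of 45655 CPM in control and 43858 in senescent cells. Of 8 chondrocyte markers, all were lower in senescent cells, with sums of 4892 to 5381 CPM in control and 369 to 456 in senescent libraries, and none of them was at 0 in control libraries. Markers of other cells were low. The macrophage list (4 of 4 tested genes higher) held 5.39 to 5.87 CPM in control and 9.86 to 11.9 in senescent libraries, and the endothelial list (5 of 5 higher) 2.47 to 2.83 and 8.22 to 8.67. The keratinocyte list (1 of 4 higher, 1 lower) held 15.8 to 16.6 CPM in control and 9.66 to 10.1 in senescent libraries, skeletal muscle (2 of 3 higher) 15.2 to 20.3 and 15.7 to 28.6, and the Schwann cell and melanocyte list (1 of 5 higher, 3 lower) 50.8 to 55.9 and 47.8 to 53.2. *Sox10*, *Myod1* and *Myh3* were at 0 in control libraries. These counts of markers stand beside 36.2% of all tested genes called higher and 34.1% called lower, at an adjusted p under 0.05 in edgeR. The sums of the chondrocyte, keratinocyte and fibroblast lists were lower and those of the macrophage and endothelial lists higher in every senescent library than in any control library, whereas those of the skeletal muscle list and of the Schwann cell and melanocyte list overlapped. Single genes weigh heavily in such sums. *S100b* had TMM-scaled means of 44.4 CPM in control and 37.8 in senescent cells, and the keratinocyte marker *Trp63* had 13.1 and 4.17. The part of these markers in the differences described below was not tested. In bulk RNA, fewer cells that express a gene and less RNA per cell cannot be told apart.

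In senescent cells, RNA of the atypical repressors *E2f7* and *E2f8* was 20.8-fold and 22.9-fold lower than in control cells. *E2f2* and *Rbl1* were 5.21-fold and 4.80-fold lower, *E2f1* and *Rbl2* were lower by much less, and *E2f3* and *Rb1* were 1.37-fold and 1.38-fold higher. *E2f4* and *E2f5* did not pass the test. Of the 10 genes, 6 were called lower and 2 higher in senescent cells with edgeR's quasi-likelihood fit, taken as an adjusted p under 0.05 after Benjamini-Hochberg adjustment over all tested genes. Across all 17589 genes, 34.1% were called lower, 36.2% higher and 70.3% either way, so the number of members called is close to that background. The study's methods threshold, an unadjusted p under 0.05 with a fold change over 2, was passed by 4 members (*E2f2*, *E2f7*, *E2f8* and *Rbl1*), all lower, against 30.1% of all genes and 12.3% lower. Control and senescent values did not overlap in 8 members, 6 lower and 2 higher, and in 75.3% of all genes, 37% lower and 38.4% higher. The median log2 fold change was -0.37 over the members and 0.01 over all tested genes. By size of fall among the tested genes, *E2f8* was number 100, *E2f7* number 115, *E2f2* number 480 and *Rbl1* number 547. With 3 samples a group, the smallest p that an exact permutation test could give for 1 gene is 0.1.

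**Figure D1:**
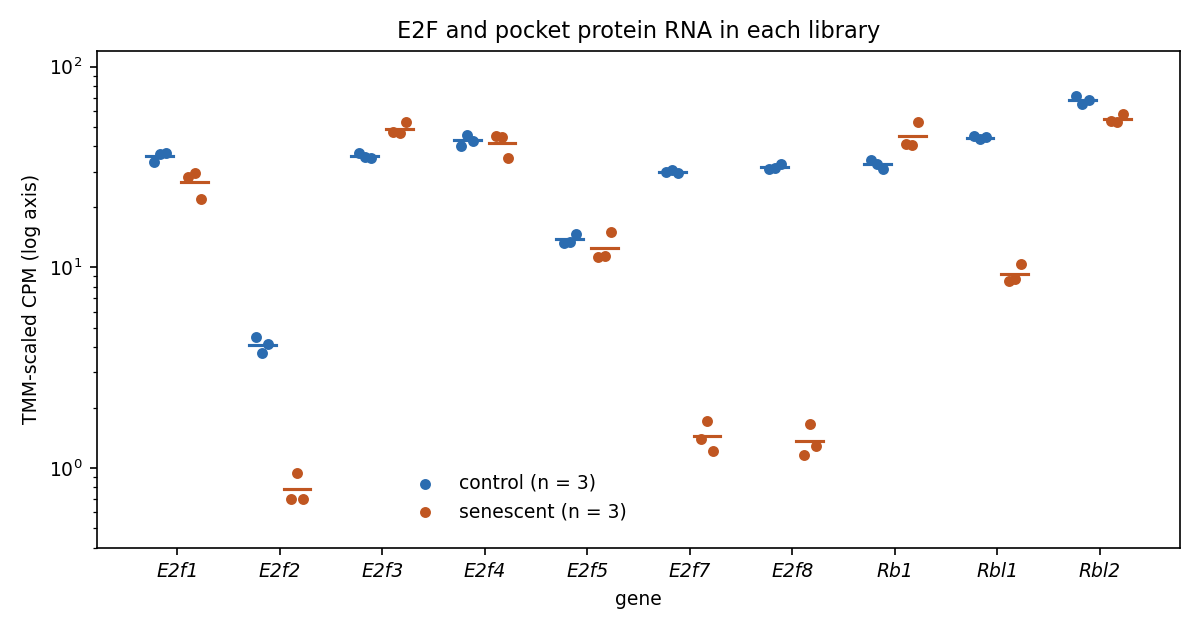
TMM-scaled CPM of each E2F and pocket protein gene on a log axis, with 1 point per library and a line at the mean of 3 libraries (blue, control; orange, senescent). *E2f7*, *E2f8*, *E2f2* and *Rbl1* fall well below their control values, while *E2f4* and *E2f5* overlap between the groups.

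Promoter sequences are shown because the E2F family is known to control some of its own genes. RefSeq windows of 300 bases (250 before and 50 after a transcript start, build GRCm38.p6, the assembly that mm10 stands for) were at hand for 7 of the 10 members, with 9 windows in all. They were searched on both strands for an E2F site, taken as TTTCCCGC, TTTGGCGC, TTTCGCGC or TTTGCCGC, and for the cell cycle homology region (CHR) TTTGAA, at which the MuvB part of DREAM is known to bind. An E2F match was present in 4 of the 9 member windows (*E2f2*, *E2f3*, *E2f7* and *Rbl1*), and in 2.26% of 32817 windows of all genes. A CHR match was present in 4 of the 9 member windows (*E2f2*, *E2f3*, *E2f8* and *Rbl2*), and in 17.9% of all windows. In the member windows, no match of the first kind overlapped a match of the second. The stretches below run 5′ to 3′ along the gene, with E2F and CHR matches in capitals on whichever strand they lie.
*E2f3*, chr13:29986064-29986133, minus strand: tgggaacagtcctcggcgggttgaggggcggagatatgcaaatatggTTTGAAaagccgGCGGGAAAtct
*Rbl1*, chr2:157204535-157204604, minus strand: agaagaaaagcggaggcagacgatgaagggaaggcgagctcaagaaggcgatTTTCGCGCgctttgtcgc
*E2f8*, chr7:48881597-48881666, minus strand: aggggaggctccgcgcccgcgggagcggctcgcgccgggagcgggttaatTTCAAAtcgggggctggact
*E2f7*, chr10:110745219-110745288, plus strand: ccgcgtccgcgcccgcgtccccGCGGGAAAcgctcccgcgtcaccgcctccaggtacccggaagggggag
*E2f2*, chr4:136172294-136172323, plus strand: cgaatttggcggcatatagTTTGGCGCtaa
*Rbl2*, chr8:91069837-91069906, plus strand: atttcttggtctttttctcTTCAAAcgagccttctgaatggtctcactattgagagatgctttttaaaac

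The *E2f3* stretch holds both kinds of match within the last 23 bases before the transcript start, and *E2f3* was higher in senescent cells. The *Rbl1* match begins 18 bases before the start and the *E2f8* match 20 bases before it, in genes that were lower. In *E2f7* the match lies farther away, beginning 198 bases before the start. In *E2f2* it begins 40 bases after a transcript start that itself lies 120 bases before the annotated gene. The *E2f3* start used, 29986063 on chromosome 13, also lies outside the gene as the count table places it (29906575 to 29985668). A second *E2f3* window, with a start at 29984391 inside these bounds, held neither match. The CHR match of *Rbl2* begins 201 bases before the start, and the CHR match of *E2f2* lies in a second window, at a start inside the gene. For *E2f1*, the window at hand belongs to a transcript start that lies 466 bases inside the gene, and it held neither match. A match in these windows is a run of letters and not a measured binding site.

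The atypical repressors fell the most of the 10 genes. *E2f8* (ENSMUSG00000046179, chromosome 7 of mm10 from 48866429 to 48881596) had 30.8, 31.1 and 32.6 CPM in control replicates 1, 2 and 3 and 1.15, 1.65 and 1.28 CPM in senescent replicates 1, 2 and 3. Every senescent library was far below every control library. The log2 fold change was -4.52 (SE 0.13, adjusted p = 6.89e-08 in edgeR). *E2f7* (ENSMUSG00000020185, chromosome 10 from 110745439 to 110787384) had 29.9, 30.4 and 29.6 CPM in control and 1.39, 1.72 and 1.21 CPM in senescent libraries. Replicates of each group lay close together, and in both genes senescent replicate 2 was the highest of the senescent libraries. For *E2f7* the log2 fold change was -4.38 (SE 0.13, adjusted p = 7.38e-08 in edgeR). The senescent values rest on 64 to 136 counts per library in the 2 genes. Per kilobase of gene length, *E2f7* stood to *E2f8* as 0.575 ± 0.0231 in control and 0.642 ± 0.0791 in senescent cells (SD, n = 3), so the share of each in the pair moved little beside the fall of both. Without senescent replicate 3, the log2 fold changes were -4.44 for *E2f8* and -4.24 for *E2f7*.

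The activators did not move as a group. *E2f2* (ENSMUSG00000018983, chromosome 4 from 136172394 to 136196057) was the lowest member in control cells, also per length, with 4.47, 3.75 and 4.13 CPM, and had 0.704, 0.946 and 0.699 CPM in senescent replicates 1, 2 and 3. Its groups did not overlap, although its senescent values rest on only 39 to 75 counts, and 39 counts have a 95% exact Poisson interval of 27.7 to 53.3. The log2 fold change was -2.38 (SE 0.16, adjusted p = 5.01e-06 in edgeR). *E2f1* (ENSMUSG00000027490, chromosome 2 from 154559407 to 154569892), the founding member of the family, had 33.3, 36.8 and 37.3 CPM in control and 28.2, 29.6 and 21.8 CPM in senescent libraries. The groups did not overlap, but the gap between them was smaller than the range within the senescent group, in which replicate 3 was the lowest. Its log2 fold change was -0.43 (SE 0.12, adjusted p = 0.0118 in edgeR), a fall of 25.9%. Without senescent replicate 3, it was -0.30 (adjusted p = 0.000266 in edgeR).

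*E2f3* (ENSMUSG00000016477, chromosome 13 from 29906575 to 29985668) went the other way. It had 37.0, 35.4 and 35.1 CPM in control and 47.3, 46.9 and 53.3 CPM in senescent libraries, with no overlap and with senescent replicate 3 the highest. The log2 fold change was 0.46 (SE 0.07, adjusted p = 0.000618 in edgeR), and 0.40 without senescent replicate 3. *E2f3* is known to give a long and a short protein from separate promoters, and counts per gene do not tell them apart. Per kilobase of the length in the count table, *E2f3* stood to *E2f1* as 0.661 ± 0.0604 in control and 1.25 ± 0.312 in senescent cells (SD, n = 3). The ratio was above 1 in each senescent library and below 1 in each control library. It rests on a length of 4794 bases for *E2f3*. The GENCODE annotation (release M21) gives *E2f3* 5429 exonic bases, and *E2f1* has 3154 in both sources. With the longer length, the ratio would be smaller and not above 1 in every senescent library.

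The repressors that act with pocket proteins differed by less than the test could call. *E2f4* (ENSMUSG00000014859, chromosome 8 from 105297663 to 105305369) had 40.3, 45.7 and 42.8 CPM in control and 44.9, 44.6 and 35.2 CPM in senescent libraries. Senescent replicates 1 and 2 lay within the control range and replicate 3 below it. Its log2 fold change was -0.05 (95% interval -0.29 to 0.20, adjusted p = 0.704 in edgeR), and 0.07 without senescent replicate 3 (adjusted p = 0.269), so no direction can be given. *E2f5* (ENSMUSG00000027552, chromosome 3 from 14578641 to 14606309) had 13.3, 13.3 and 14.7 CPM in control and 11.3, 11.3 and 15.0 CPM in senescent libraries. Here senescent replicates 1 and 2 lay below all control libraries and replicate 3 above them. The log2 fold change was -0.13 (95% interval -0.42 to 0.16, adjusted p = 0.370 in edgeR). Without senescent replicate 3, *E2f5* was called lower, at -0.27 (adjusted p = 0.00307 in edgeR), so for this gene the call rests on 1 library, and without it 9 members were called, 7 of them lower.

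**Figure D2:**
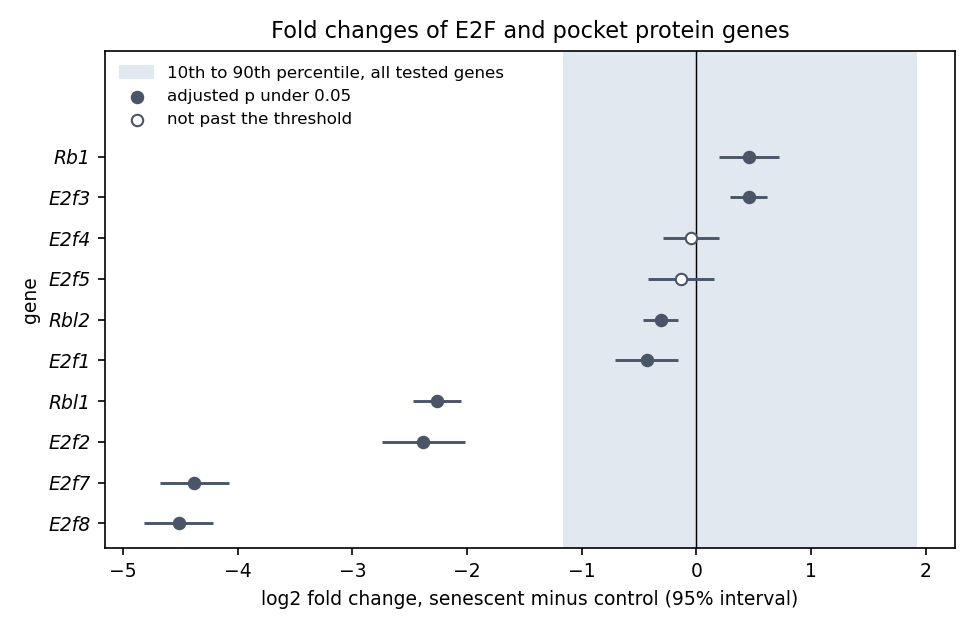
Log2 fold change of each member, senescent minus control, with its 95% interval from edgeR's quasi-likelihood fit over 3 libraries per group. The grey band marks the 10th to 90th percentile of all 17589 tested genes (-1.15 to 1.92), and *E2f7*, *E2f8*, *E2f2* and *Rbl1* lie below it.

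Among the pocket proteins, *Rbl1* fell, *Rbl2* fell slightly and *Rb1* rose. *Rbl1* (ENSMUSG00000027641, chromosome 2 from 157145893 to 157204534), which encodes p107, had 44.9, 43.5 and 44.5 CPM in control and 8.53, 8.72 and 10.4 CPM in senescent replicates 1, 2 and 3. Replicates of each group lay close together and the groups were far apart. The log2 fold change was -2.26 (SE 0.09, adjusted p = 3.68e-07 in edgeR), and -2.35 without senescent replicate 3. *Rbl2* (ENSMUSG00000031666, chromosome 8 from 91070057 to 91123844), which encodes p130, had 71.4, 65.1 and 68.3 CPM in control and 53.7, 52.8 and 58.4 CPM in senescent libraries. The groups did not overlap, and the fall was 19.5%. Its log2 fold change was -0.31 (SE 0.07, adjusted p = 0.00320 in edgeR), and -0.35 without senescent replicate 3.

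*Rb1* (ENSMUSG00000022105, chromosome 14 from 73183673 to 73325822), the retinoblastoma gene, had 34.4, 32.6 and 31.0 CPM in control and 41.0, 40.6 and 53.3 CPM in senescent libraries. All senescent libraries lay above all control libraries, and senescent replicate 3 lay well above the other two. The log2 fold change was 0.46 (SE 0.11, adjusted p = 0.00711 in edgeR). Without senescent replicate 3 it was 0.33 (adjusted p = 4.71e-05 in edgeR), so the direction did not rest on that library but part of the size did.

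Levels of different genes were compared as CPM per kilobase of the gene length in the count table. On this scale *E2f4* was the highest E2F gene in all 6 libraries, at 21.6 ± 1.37 in control and 20.9 ± 2.77 in senescent cells (SD, n = 3). In control cells it was followed by *E2f1* at 11.3 ± 0.688, then by *E2f5* at 7.72 ± 0.454 and *E2f3* at 7.48 ± 0.208, which did not differ beyond their spread, then by *E2f8* at 5.79 ± 0.175, *E2f7* at 3.33 ± 0.0458 and *E2f2* at 0.843 ± 0.0740. In senescent cells *E2f3* came second at 10.3 ± 0.746, above *E2f1* at 8.41 ± 1.32 in every library. The order of *E2f3* and *E2f1* in senescent cells depends on the length taken for *E2f3*, as described above. *E2f5* followed at 7.03 ± 1.19, within the spread of *E2f1*. *E2f8*, *E2f2* and *E2f7* were last, at 0.250 ± 0.0476, 0.160 ± 0.0290 and 0.160 ± 0.0286, and the last 2 did not differ beyond their spread.

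The makeup of the family shifted with these changes. *E2f7* and *E2f8* made up 15.7% ± 0.392 of the summed E2F level per kilobase in control cells and 0.868% ± 0.133 in senescent cells (SD, n = 3). The activators *E2f1*, *E2f2* and *E2f3* went from 33.9% ± 0.478 to 40.0% ± 0.693, and *E2f4* with *E2f5* from 50.4% ± 0.870 to 59.2% ± 0.715. None of these shares overlapped between the groups. The summed level of the activators was 19.7 ± 0.423 CPM per kilobase in control and 18.8 ± 0.607 in senescent cells, while within it *E2f3* took a larger and *E2f2* a smaller share. That of *E2f4* with *E2f5* was 29.3 ± 1.45 in control and 27.9 ± 1.58 in senescent cells. Both shares rose although neither mean level did, while *E2f7* with *E2f8* went from 9.11 ± 0.147 to 0.410 ± 0.0730 CPM per kilobase. Shares within a sum depend on each other, so a share can rise without a rise in level, and no test was made on them.

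In the pocket protein family, *Rbl1* went from 32.7% ± 0.642 of the summed level per kilobase to 9.10% ± 0.148 (SD, n = 3), and *Rb1* from 24.0% ± 0.873 to 44.0% ± 2.27. *Rbl2* held 43.3% ± 0.771 in control and 46.9% ± 2.31 in senescent cells. The order in every control library was *Rbl2*, *Rbl1*, *Rb1*. In senescent replicates 1 and 2 it was *Rbl2*, *Rb1*, *Rbl1*, and in senescent replicate 3 *Rb1* was above *Rbl2*. *Rb1* stood to *Rbl1* as 0.735 ± 0.0362 in control and 4.84 ± 0.238 in senescent cells, so p107 RNA was between the other two in control and lowest in senescent cells.

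**Figure D3:**
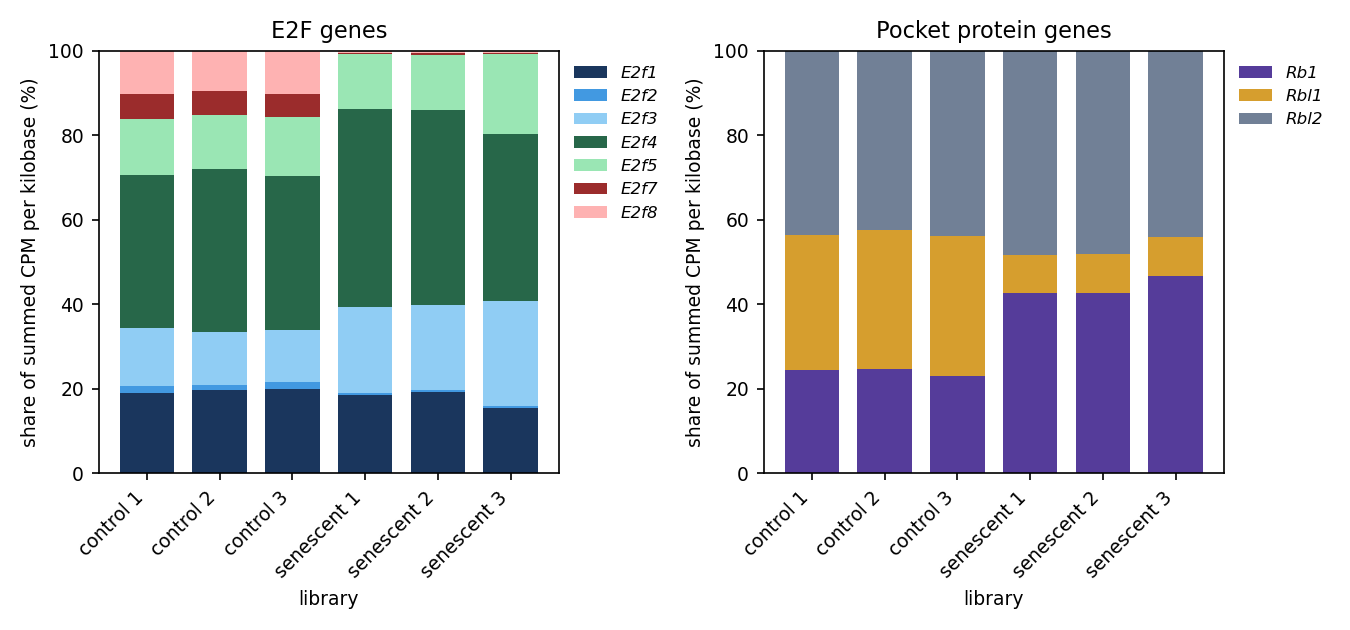
Share of each gene in the summed CPM per kilobase of its family, with 1 bar per library (3 control, 3 senescent). *E2f7* and *E2f8* shrink from 15.7% to 0.868% of the E2F sum on average, and *Rbl1* from 32.7% to 9.10% of the pocket protein sum.

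The E2F partners were followed through lists of genes chosen for their known roles. RNA of both genes for DP proteins, which pair with E2F1 to E2F6 to bind DNA, fell. *Tfdp1* went from a mean of 149.9 to 98.5 CPM (log2 fold change -0.61, SE 0.05), and *Tfdp2* from 47.4 to 25.6 CPM (log2 fold change -0.89, SE 0.06). *E2f6*, a repressor that does not bind pocket proteins and is not counted among the 10 members, rose from 34.6 ± 1.25 to 69.0 ± 4.51 CPM (SD, n = 3), or by 1.00 on the log2 scale (adjusted p = 6.43e-06 in edgeR).

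Of 8 genes for DREAM and the MuvB activators, 5 were lower and 1, *Lin52*, was higher, with a median log2 fold change of -0.64. The share called in this list was close to the 70.3% called among all tested genes. *Mybl2* and *Foxm1*, whose proteins take the place of p130 and E2F4 on MuvB in dividing cells, changed by -3.86 and -3.65. The MuvB subunit *Lin9* changed by -1.43. The DREAM subunit genes *Rbbp4* and *Lin54* also fell, by 0.63 and 0.65 on the log2 scale, while *Lin52* rose by 0.36.

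The kinases and cyclins that act on pocket proteins went both ways. All 9 were called, 6 lower and 3 higher, with a median of -1.01, against 70.3% called, 34.1% lower and 36.2% higher, among all tested genes. Lower were *Ccna2* at -5.37, *Ccne2* at -2.79, *Cdk2* at -2.15, *Ccne1* at -1.24, *Cdk4* at -1.01 and *Ccnd3* at -0.56 on the log2 scale. Higher were the cyclin D genes *Ccnd1*, from 237.5 ± 11.3 to 871 ± 24.8 CPM (SD, n = 3), and *Ccnd2*, at 1.29, and the kinase gene *Cdk6*, at 0.75. Cyclins A and E work with CDK2, and D cyclins with CDK4 and CDK6.

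All 7 genes for inhibitors of these kinases were called, 3 higher and 4 lower, with a median of -0.34, against the same 70.3% of all tested genes. *Cdkn1a*, which encodes p21, rose from 123 ± 2.01 to 619.5 ± 16.3 CPM (SD, n = 3), a log2 fold change of 2.33. *Cdkn2b* (p15) rose by 1.76 and *Cdkn2a*, whose count joins p16 and p19ARF, by 1.90. *Cdkn2d*, *Cdkn1b*, *Cdkn2c* and *Cdkn1c* changed by -2.42, -1.77, -1.62 and -0.34, the last with a call (adjusted p = 0.0237 in edgeR) that was lost under 4 of the 13 alternatives. Genes for the corepressors that pocket proteins recruit were lower in 5 of 8 cases and higher in none, with a median of -0.50, against 34.1% lower and 36.2% higher among all tested genes, and the share called either way was below the 70.3% of all genes. The largest changes in this list were -1.39 in *Suv39h1*, a histone methyltransferase gene, and -0.92 in *Hdac1*, a histone deacetylase gene.

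Among 6 genes for the turnover of E2F and pocket proteins, 5 were lower and only *Mdm2*, a p53 target, was higher, against 34.1% lower and 36.2% higher among all tested genes. *Cdc20*, *Ccnf*, *Fbxo5*, *Fzr1* and *Skp2* had log2 fold changes of -4.58, -4.25, -3.56, -1.79 and -1.58, and *Mdm2* had 1.92. Cyclin F is known to mark activator and atypical E2F proteins for degradation, and *Skp2* encodes a subunit of the ligase that degrades p27 and p130.

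The known targets on the 2 lists chosen here were lower throughout. All 35 genes for G1/S targets of E2F were lower in senescent cells, with a median log2 fold change of -2.56 and a range of -6.00 (*Tk1*) to -0.28 (*Cdc25a*). The helicase subunit gene *Mcm5* went from 134 ± 5.73 to 7.50 ± 0.693 CPM (SD, n = 3), and *Rrm1*, a subunit of ribonucleotide reductase, and *Mcm3* changed by -3.18 and -3.03. All 16 genes for G2/M targets of DREAM were lower as well, with a median of -5.14 and a range of -5.94 (*Mki67*) to -3.60 (*Cdk1*). *Ccnb2*, *Ccnb1* and *Birc5*, which act in mitosis, changed by -5.48, -5.18 and -4.95. The fall of *E2f7* and *E2f8* lay between the medians of these 2 lists, and those of *E2f2* and *Rbl1* were smaller than both. Of all tested genes, 34.1% were called lower, and every count of the 2 lists was the same without senescent replicate 3.

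**Figure D4:**
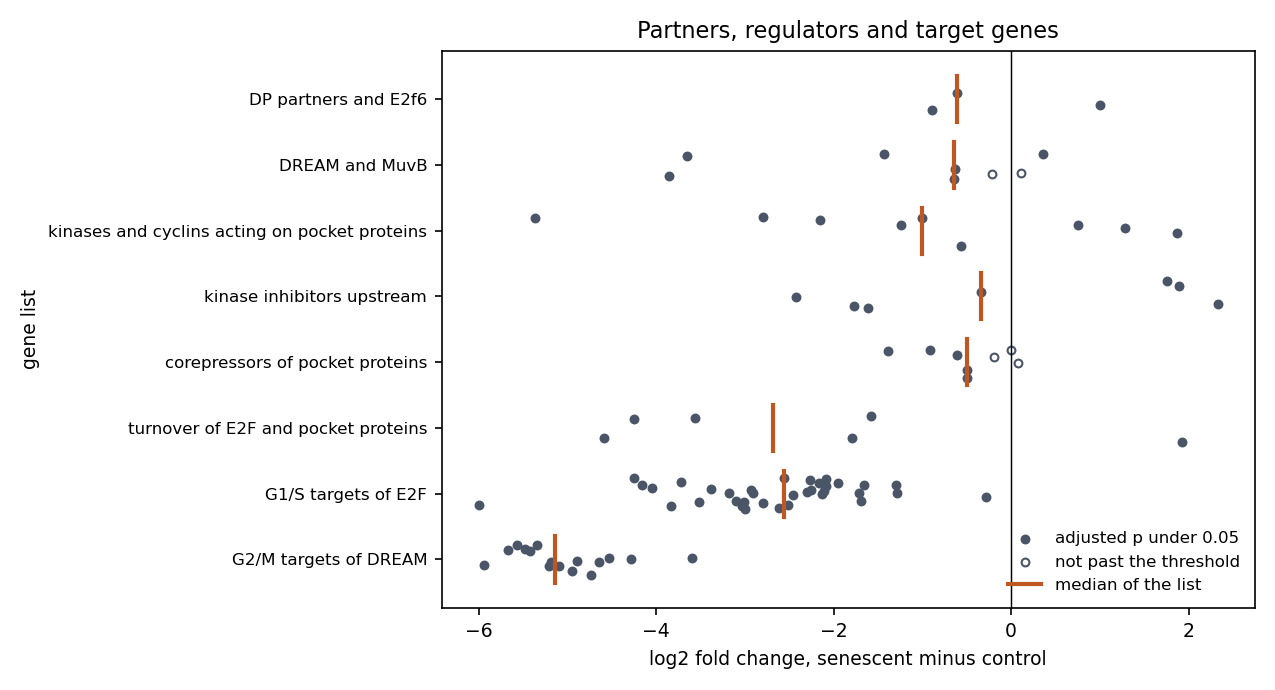
Log2 fold change, senescent minus control, of every tested gene in the lists of partners, regulators and targets of E2F and pocket proteins. Each point is 1 gene, filled at an adjusted p under 0.05, and the orange bar is the median of the list. The 35 G1/S and 16 G2/M target genes all lie below 0.

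Profiles most like those of the members at either end were sought among the 12958 tested genes that averaged 100 counts or more, by the Euclidean distance between log2 CPM values centred on each gene's mean over the 6 libraries. Nearest to *E2f8* were *Cdc20* (distance 0.112), *Kif18b* (0.198) and *Oip5* (0.262), and *E2f7* was number 4 (0.321). *Kif18b* and *Oip5*, genes with roles in mitosis, had log2 fold changes of -4.42 and -4.61. Nearest to *Rb1* were *Arl5a* (0.0227), *Caap1* (0.0534) and *Fbxo30* (0.0605), with log2 fold changes of 0.47, 0.44 and 0.47, and *E2f3* stood at number 270 (0.179). These distances rest on 6 libraries in 2 groups and were not tested.

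Some member exons overlap other genes on the opposite strand, and the strand setting of the authors' counting is not given in the sources used here. In the GENCODE annotation (release M21), *Rbl2* shares 693 exonic bases with *Aktip* and 892 with *Gm45464*, *E2f8* shares 610 with *Gm2788*, and *Rb1* shares 488 with *Rcbtb2* and 408 with *Lpar6*. *Gm45464* has no row in the count table. For *Rbl2*, the count table gives a length of 6963 bases where this release has 7558. These overlaps therefore need not all apply to the counts. *Gm2788* counts were 60, 83 and 50 in the control libraries and 5, 2 and 1 in the senescent libraries, low where *E2f8* was low. *Aktip* rose from 30.4 ± 0.564 to 51.6 ± 4.66 CPM while *Rbl2* fell (SD, n = 3). Of the *Rb1* partners, *Lpar6* rose from 11.8 ± 0.104 to 19.0 ± 1.82 CPM, the same direction as *Rb1*, and *Rcbtb2* fell from 78.7 ± 1.31 to 43.2 ± 1.57 CPM (SD, n = 3). The part of these partners in the member values was not tested. *E2f7* and *E2f5* share 86 and 26 exonic bases with other genes, and *E2f1*, *E2f2*, *E2f3*, *E2f4* and *Rbl1* share none. Without strand, reads in these bases cannot be told apart between partners that were both counted.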

How the data were processed

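RNA of 3 control and 3 senescent MAF samples was sequenced from stranded mRNA libraries made with 200 ng of RNA. In the authors' MAPRSeq pipeline STAR aligned read pairs against mm10, Subread (also in the submitters' processing notes) made counts per gene, and the deposited counts are not normalized. Treatment of reads with several positions is not given in the sources used here.

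Groups and replicate numbers came from the sample titles. Low genes were removed with filterByExpr. After TMM scaling, senescent was set against control samples in a robust, two-sided quasi-likelihood fit of edgeR 4.0.16 (R 4.3.3) with group as the only term and Benjamini-Hochberg adjustment over 17589 genes. CPM and intervals were computed here, and intervals cover counting error or the spread between these samples alone. Named genes are the 10 members, the 3 genes of each list with the smallest p, the nearest profiles and, chosen after their values were seen, other called list genes. The members and lists were chosen with earlier results of these data known. 1 further list is not reported here. Methods were tested on simulated data. Alternatives were RLE scaling, library size alone, 2 other filters, edgeR's exact test, DESeq2 1.42.0, a replicate term and leaving out each library.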

Additional observations from a re-analysis of the deposited data

How the results depend on the processing

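All 8 called members kept their direction and their call under all 13 alternatives, with log2 fold changes of -4.68 to -4.42 for *E2f8*, -4.53 to -4.24 for *E2f7*, -2.54 to -2.28 for *E2f2*, -2.35 to -2.18 for *Rbl1*, -0.51 to -0.30 for *E2f1*, -0.35 to -0.23 for *Rbl2*, 0.40 to 0.53 for *E2f3* and 0.33 to 0.54 for *Rb1*. Without senescent replicate 3, 9 members were called, as *E2f5* then passed. *E2f4*, which was not called, turned to 0.031 when scaled by library size alone, to 0.0018 with at least 10 counts in every library, and to 0.067 without senescent replicate 3 (range with 1 library left out, -0.10 to 0.07). The study's methods threshold in place of an adjusted p called 5300 genes, 3134 higher and 2166 lower, and 4 members, 0 of them higher, because it asks for a fold change over 2. With library size alone, the median log2 fold change over all tested genes went from 0.009 to 0.086. Under this setting 2 DREAM and MuvB genes were higher, *Lin52* and *Dyrk1a*, and the cause was not tested. Without division by length, *E2f4* was 22.1% of the E2F sum in control and 31.1% in senescent cells, and *Rb1* 22.5% and 41.0% of the pocket protein sum, since the genes differ in length.

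Replicate numbers are shared by the groups, but samples of 1 number did not deviate together (Pearson r over genes -0.145, 0.135 and -0.12 for numbers 1, 2 and 3). With the replicate block, 11624 genes and 8 members were called, and the log2 fold changes were -4.53 for *E2f8* and 0.45 for *Rb1*. Not every sample correlated best with its own number. The block ended the call of *Cdkn1c* (adjusted p = 0.0587, edgeR) and changed no other list count. The depth limits the senescent values of *E2f2*, *E2f7* and *E2f8* most, which rest on 39 to 136 counts.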

Other observations

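The E2F letters searched in the member promoters were also set beside the fold changes of all genes, as a description with no test. Of 11361 tested genes with a promoter window, 499 held an E2F match. Of these, 48.5% were lower and 24.2% higher in senescent cells, with a median log2 fold change of -0.23. Of genes without a match, 34.4% were lower and 38.6% higher, with a median of 0.03. For the CHR letters, 36.7% of the 1634 genes with a match were lower and 39.3% higher, with a median of 0.019, and of genes without a match 34.7% were lower and 37.8% higher, with a median of 0.021.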
